A study of Drosophila melanogaster with 10 samples.

Results

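The inducible antimicrobial peptide genes of Drosophila melanogaster examined here were AttA, AttB, AttC, AttD, CecA1, CecA2, DptA, DptB, Dro and Mtk, 10 of the 17402 genes in the count table. They were chosen by name as genes of the fat body immune response, and all 10 were among the 13551 genes with enough reads to test. Female larvae of the third instar were used whole, and their polyadenylated RNA was sequenced in 2 libraries for each of 5 strains, which carried different alleles of AGO2, the Argonaute protein that binds small interfering RNAs. By their labels these were the control w, 51B (a null allele), 51B/+ (that allele with a wild-type copy), V966M (an allele with a point mutation that removes catalytic activity) and V966M/+ (that allele with a wild-type copy). No infection, wound or other treatment was named for any strain, nor was the number of larvae in a library or whether the 2 libraries of a strain came from separate cultures, so the p-values measure only the spread between libraries, which may be technical. The design asks whether loss of AGO2, as opposed to loss of its catalytic activity, alters gene expression.

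AGO2 RNA went against one pair of labels. Its level was 191 ± 54.1 CPM (read counts scaled to a common library size, SD, n = 2) in w and 102 ± 3.97 CPM in the libraries labelled 51B, but 3.35 ± 0.715 CPM in the libraries labelled 51B/+. The libraries labelled V966M held 199 ± 51.6 CPM and those labelled V966M/+ held 221 ± 38.6 CPM, and a point mutation would not be seen in such a level. The titles of the libraries labelled 51B/+ and V966M/+ name the allele on both chromosomes, whereas the strain field names it on one. Groups are therefore called by their strain labels throughout, although AGO2 RNA was at a fold of 0.0177 of w in the libraries labelled 51B/+ (adjusted p = 0.000124, edgeR) and 0.538 in those labelled 51B (adjusted p = 0.268), the reverse of the order those labels imply. For the V966M pair the level does not tell the labels apart. AGO2 shares 317 exonic bases with CG7739 on the opposite strand, and reads were counted without regard to strand.

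Antimicrobial peptides are small secreted proteins that kill bacteria and fungi. In Drosophila, their genes are switched on mainly in the fat body after infection. Peptidoglycan of Gram-negative bacteria is sensed by receptors such as PGRP-LC, which act through the Imd pathway on the NF-kappaB factor Relish, the product of Rel. Fungi and many Gram-positive bacteria act through Spätzle, the product of spz, and the receptor Toll on the factors Dif and Dorsal. Diptericins (DptA, DptB), attacins (AttA to AttD), cecropins (CecA1, CecA2) and drosocin (Dro) are known chiefly as outputs of Imd signalling, and metchnikowin (Mtk) responds to both pathways.

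The 10 genes lay in few places in the dm6 assembly, all on the plus strand. Dro (2R:14745961-14746714), AttA (2R:14747362-14748215) and AttB (2R:14749223-14750165) stood in a row, with 647 bases between Dro and AttA and 1007 bases between AttA and AttB. AttC was on the same arm (2R:13393705-13394667), as were Mtk (2R:15408846-15409113) and the neighbours DptA (2R:18865765-18866260) and DptB (2R:18867391-18867895), which were 1130 bases apart. AttD (3R:17625268-17626086) was on the other arm with CecA1 (3R:30210874-30211273) and CecA2 (3R:30212156-30212568), which were 882 bases apart and were followed by CecB and CecC. AttA and AttB, and likewise CecA1 and CecA2, are near-identical copies, so the division of reads between them is uncertain. Exons of AttC and DptB overlapped exons of a gene on the other strand by 53 and 48 bases. The partner of AttC, CG4744, held 40 counts in the labelled 51B/+ replicate 3 and at most 1 in any other library, and the partner of DptB, CG43109, held 10 to 41 counts.

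Total counts per library ran from 22337432 to 60886803, and replicate 3 was the deeper library in every strain. A count of 0 allows up to 3 counts, which corresponds to 0.0513 to 0.149 CPM. CPM values are counts per 1e+06 counts of the library, scaled by TMM, a factor that removes composition differences between libraries. A gene was called where its adjusted p was under 0.1, by the quasi-likelihood test of edgeR with Benjamini-Hochberg adjustment over all 13551 genes.

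Summed over the 10 genes, the level was 38.5 and 20.1 CPM in the w libraries, 32.4 and 97.4 in those labelled 51B, 288 and 84.9 in 51B/+, 35.03 and 31.6 in V966M, and 672 and 427 in V966M/+ (replicates 3 and 4 in this order, as below). Both V966M/+ libraries lay above every other library. Both 51B/+ libraries lay above w and V966M, but replicate 4 of 51B/+ was below replicate 4 of 51B. In whole larvae, more RNA per cell and more cells of a type that makes the RNA cannot be told apart.

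**Figure D1:**
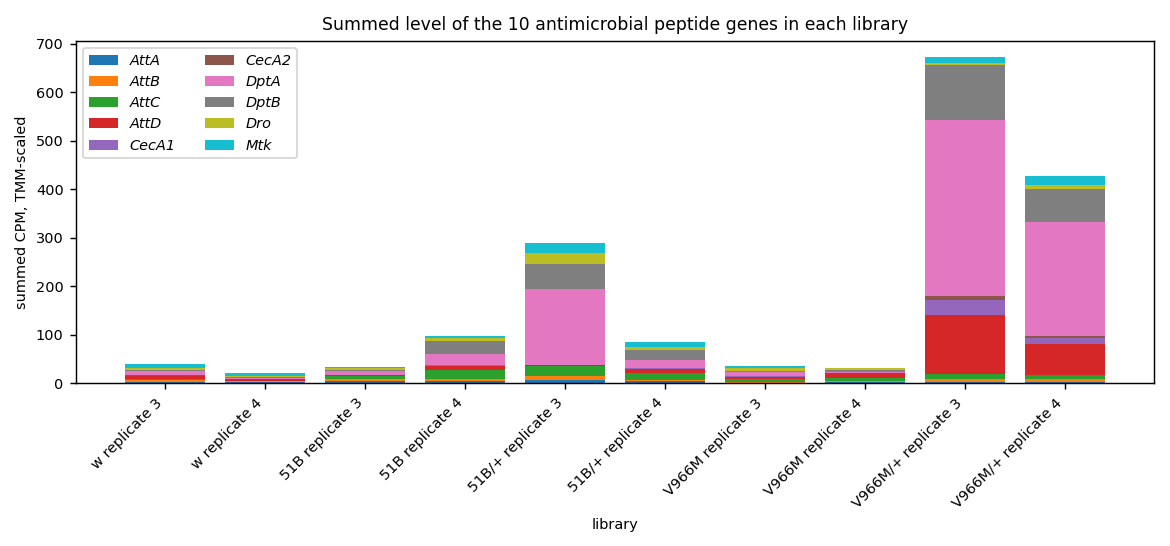
Summed TMM-scaled CPM of the 10 antimicrobial peptide genes in each of the 10 libraries, stacked by gene. The 2 V966M/+ libraries reached 672 and 427 CPM and were mostly DptA, DptB and AttD, and 51B/+ replicate 3 reached 288 CPM.

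The diptericins act on Gram-negative bacteria. DptA was at 8.47 and 1.77 CPM in w, 7.13 and 23.3 in 51B, 156 and 18.0 in 51B/+, 8.38 and 2.52 in V966M, and 364 and 235 in V966M/+. DptB was at 2.92 and 3.16 CPM in w, 1.78 and 26.7 in 51B, 53.4 and 19.6 in 51B/+, 3.59 and 3.58 in V966M, and 113 and 67.9 in V966M/+. For both genes the V966M/+ libraries were above all others, and in 51B and in 51B/+ 1 library was well above its partner.

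Cecropins are peptides that permeabilise bacterial membranes. CecA1 had 40 and 5 counts in w (0.730 and 0.211 CPM), 3 and 30 in 51B, 8 and 8 in 51B/+, 15 and 3 in V966M, and 1407 and 396 in V966M/+ (30.7 and 12.0 CPM). CecA2 had 6 and 3 counts in w, 10 and 7 in 51B, 5 and 6 in 51B/+, 11 and 1 in V966M, and 322 and 103 in V966M/+ (7.04 and 3.12 CPM). Outside V966M/+, no library held over 40 counts of CecA1 or over 11 of CecA2, and the other strains overlapped w for CecA1.

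Attacins are larger, glycine-rich peptides directed against Gram-negative bacteria, and the 4 genes did not share one pattern. AttD was at 5.79 and 3.29 CPM in w, 2.84 and 9.14 in 51B, 1.77 and 8.14 in 51B/+, 4.50 and 10.8 in V966M, and 123 and 64.2 in V966M/+. AttC was at 3.49 and 1.35 CPM in w, 6.63 and 17.7 in 51B, 20.0 and 14.4 in 51B/+, 5.78 and 6.06 in V966M, and 9.02 and 7.94 in V966M/+. Thus AttD stood out in V966M/+ alone, while AttC was above w in both libraries of all 4 mutant strains and had its highest mean in 51B/+.

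AttA was at 2.65 and 1.86 CPM in w, 5.27 and 4.82 in 51B, 7.05 and 3.85 in 51B/+, 1.11 and 2.12 in V966M, and 2.69 and 1.76 in V966M/+. AttB was at 2.96 and 1.77 CPM in w, 2.34 and 3.58 in 51B, 8.17 and 3.46 in 51B/+, 2.07 and 1.99 in V966M, and 6.58 and 7.67 in V966M/+. The V966M/+ libraries straddled w for AttA and lay above w for AttB.

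Drosocin is a proline-rich peptide, and metchnikowin acts on fungi and bacteria. Dro was at 3.94 and 1.39 CPM in w, 4.17 and 5.67 in 51B, 22.03 and 6.96 in 51B/+, 4.29 and 2.88 in V966M, and 3.32 and 7.88 in V966M/+. Mtk was at 7.41 and 5.15 CPM in w, 1.89 and 4.67 in 51B, 20.0 and 9.93 in 51B/+, 4.86 and 1.46 in V966M, and 13.2 and 19.0 in V966M/+. Both libraries of 51B and of V966M lay below w for Mtk, whereas those of 51B/+ and V966M/+ lay above it.

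**Figure D2:**
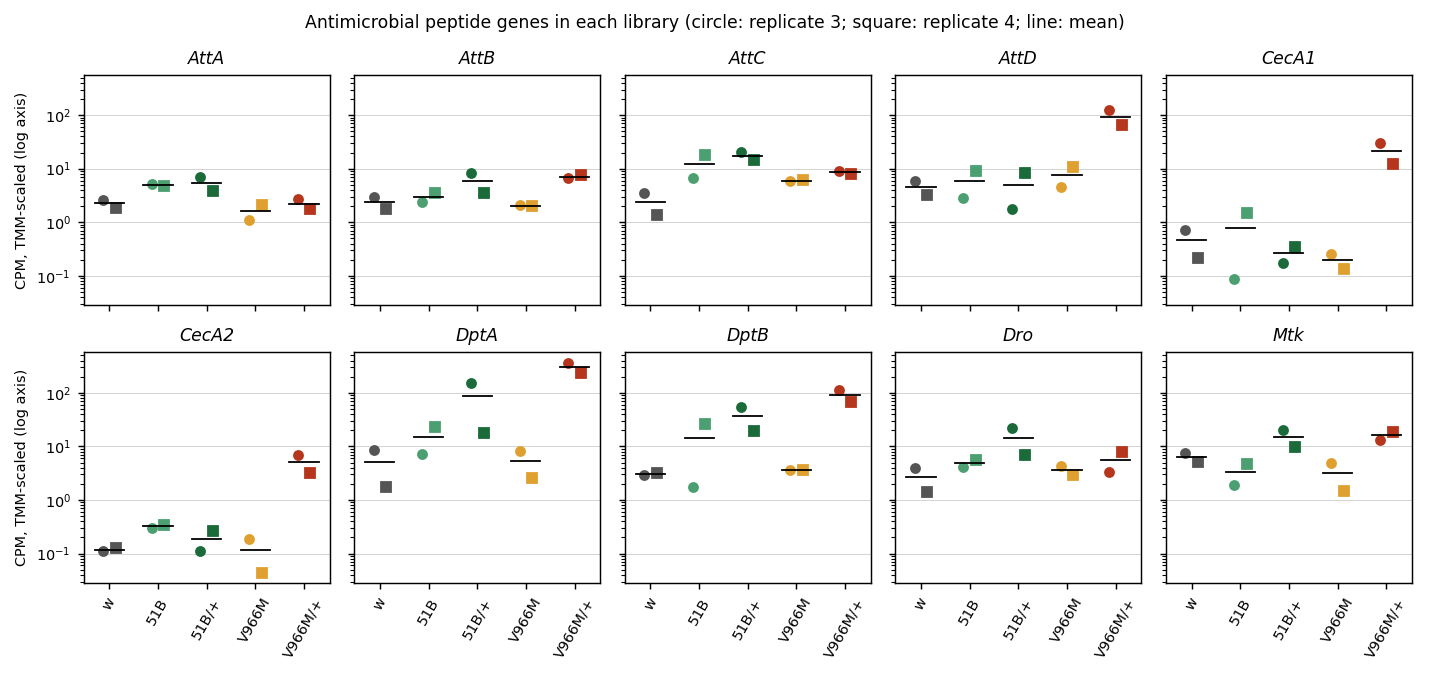
Level of each of the 10 genes in every library, as TMM-scaled CPM on a log axis, with the strains along the x axis (circle, replicate 3, square, replicate 4, line, mean). The V966M/+ points stand above all other libraries for AttD, CecA1, CecA2, DptA and DptB, but not for AttA, AttB, AttC, Dro or Mtk.

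In the libraries labelled V966M/+, the cecropin genes rose against w. CecA2 rose by a log2 fold change of 5.42 (SE 0.65, adjusted p = 0.00748, edgeR quasi-likelihood test) and CecA1 by 5.35 (SE 0.996, adjusted p = 0.0758). These were 2 of 10 genes called higher, where 0.421% of all tested genes were, and 0 were called lower, where 0.723% were. The estimates of DptA (5.83, SE 1.34, adjusted p = 0.147), DptB (4.90, SE 1.15, adjusted p = 0.151) and AttD (4.34, SE 0.90, adjusted p = 0.116) did not pass the threshold. AttB (1.56, SE 0.41), AttC (1.76, SE 0.51), Mtk (1.35, SE 0.60), Dro (1.02, SE 0.67) and AttA (-0.03, SE 0.40) had adjusted p of 0.169, 0.216, 0.457, 0.680 and 1.

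Both V966M/+ libraries exceeded both w libraries for 8 of the 10 genes, all but AttA and Dro, where 18.2% of all tested genes did. The median log2 fold change was 3.05 over the 10 genes and 0.00 over all tested genes. Within replicate 3 the V966M/+ to w ratio was 21.2 for AttD, 42.1 for CecA1, 64.2 for CecA2, 43.0 for DptA and 38.8 for DptB. Within replicate 4 the same ratios were 19.5, 56.9, 24.7, 133 and 21.5, so these 5 genes were over 19-fold higher in each same-numbered pair. The labels do not say that the numbers pair the libraries. Matched otherwise a fold can be lower, as for AttD, at 64.2 CPM in V966M/+ replicate 4 and 5.79 in w replicate 3. The ratio of Dro was 0.842 in replicate 3 and 5.66 in replicate 4. DESeq2 called 7 of the 10 genes higher (AttB, AttC, AttD, CecA1, CecA2, DptA and DptB). The call of CecA1 was lost when w replicate 3 or 4, 51B/+ replicate 4, V966M replicate 3 or 4, or V966M/+ replicate 4 was left out, while CecA2 was called in every such fit.

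**Figure D3:**
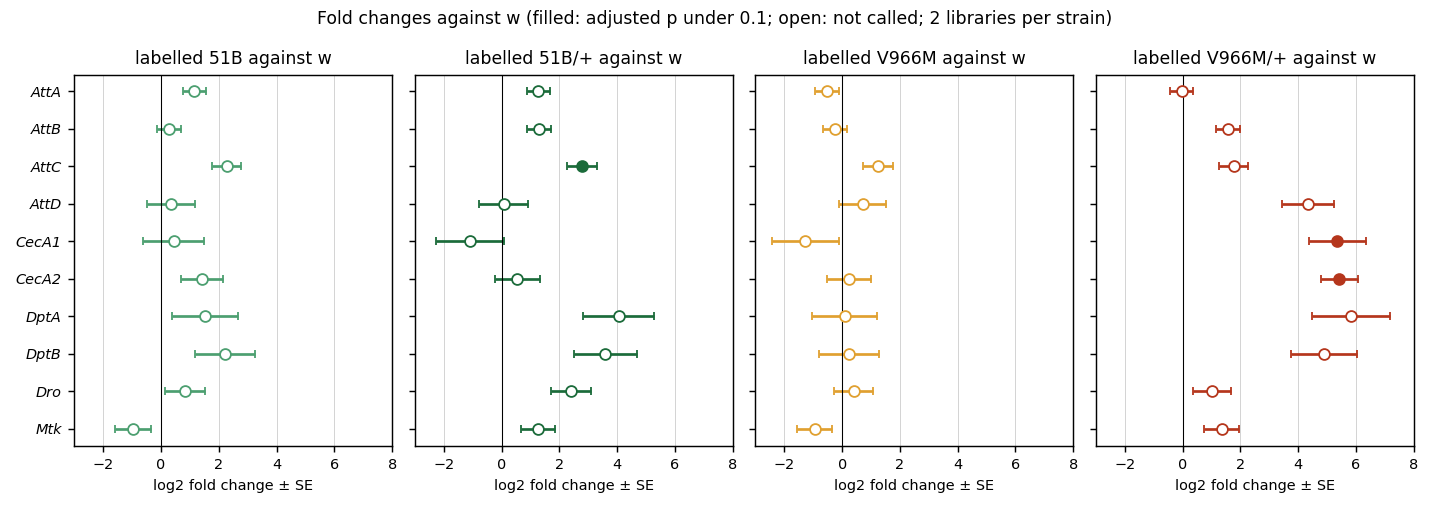
Log2 fold change of each gene against w in the 4 mutant strains, with its standard error as bars. Filled points passed an adjusted p of 0.1, which were AttC in 51B/+ and CecA1 and CecA2 in V966M/+, and open points did not.

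The strains labelled V966M and V966M/+ differed in these genes. CecA1 (log2 difference -6.62, adjusted p = 0.0378), CecA2 (-5.18, adjusted p = 0.0155), DptA (-5.74, adjusted p = 0.0699), DptB (-4.66, adjusted p = 0.0768), AttD (-3.63, adjusted p = 0.0748), Mtk (-2.29, adjusted p = 0.0927) and AttB (-1.81, adjusted p = 0.0595) were lower in V966M, all by edgeR. They were 7 of 10 genes, where 1.03% of all tested genes were called lower and 5.67% higher, and both V966M libraries were below both V966M/+ libraries for 8 of 10 genes, where 24.5% of all tested genes were. This comparison and the next share the V966M/+ libraries with the comparison against w. All 7 calls were lost without V966M replicate 4 and most without V966M/+ replicate 4. Some were lost when any 1 other library of V966M, V966M/+ or w was left out. The calls over all genes also fell sharply without V966M replicate 4 or V966M/+ replicate 4. A fit of these 2 strains alone called 3, and 17 over all genes against 908 in the main fit.

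The labelled 51B/+ libraries were lower than V966M/+ for 3 genes, namely CecA2 (-4.88, adjusted p = 0.00846), CecA1 (-6.44, adjusted p = 0.0324) and AttD (-4.28, adjusted p = 0.0591), where 1.56% of all tested genes were called lower and 4.52% higher by edgeR. DptA and DptB, which were high in 51B/+ replicate 3, were not called. Both 51B/+ libraries were above both V966M/+ libraries for AttA and AttC, where 26% of all tested genes were, and below them for 5 genes, where 23.5% were. A single gene was called when 51B/+ replicate 3 was left out (CecA2) or when only these strains were fitted (CecA1). The call of AttD was also lost without either w library or either V966M/+ library, with adjusted p up to 0.194 over the 5 fits that lost it.

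Against w, AttC was the single gene called in the libraries labelled 51B/+. It rose by 2.78 on the log2 scale (SE 0.52, adjusted p = 0.0484, edgeR), and 0.827% of all tested genes were called higher. DptA (4.05, SE 1.24, adjusted p = 0.265), DptB (3.59, SE 1.09, adjusted p = 0.261), Dro (2.40, SE 0.68, adjusted p = 0.216), AttA (1.27, SE 0.40, adjusted p = 0.250) and AttB (1.29, SE 0.41, adjusted p = 0.262) had estimates over 3 times their standard error and were not called by edgeR. Both 51B/+ libraries were above w for 7 of the 10 genes, where 19.7% of all tested genes were. DESeq2 called AttC, DptA, DptB and Dro. The call of AttC was lost without w replicate 4, 51B/+ replicate 3, V966M replicate 3 or V966M replicate 4. Without 51B/+ replicate 4, which left replicate 3 alone in that strain, calls rose among these genes and over all genes alike.

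None of the 10 genes was called in the libraries labelled 51B or V966M against w, where 0.738% and 0.125% of all tested genes were called in either direction. For 51B, 2 genes had an unadjusted p under 0.05 and DESeq2 called 1, AttC. AttC had a log2 fold change of 2.27 (SE 0.52, adjusted p = 0.143, edgeR) and AttA of 1.15 (SE 0.40, adjusted p = 0.340). DptB had 2.21 in 51B, which became -0.77 without 51B replicate 4. For V966M, 1 gene had an unadjusted p under 0.05 and DESeq2 called 0. None was called between 51B and 51B/+ (0.0812% of all tested genes, 3 with an unadjusted p under 0.05, 1 by DESeq2) or between 51B and V966M (0.118%, 1 with an unadjusted p under 0.05, 1 by DESeq2). Both 51B libraries lay above both w libraries for AttA, AttC, CecA2 and Dro, where 19.3% of all tested genes did, and below them for Mtk, where 22.4% did. Both V966M libraries lay above w for AttC and DptB (15.6% of all tested genes) and below w for Mtk (15.2%). Tested together over the 5 strains, AttA, AttD, CecA1, CecA2 and DptA differed, 5 of 10 genes where 4.9% of all tested genes did.

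Replicate libraries disagreed more for these genes than for most. The median fold between the 2 libraries of a strain was 1.71 for the 10 genes in w. The strain 51B had 2.57 and 51B/+ had 2.38, while V966M had 1.92 and V966M/+ had 1.61. Over the 9656 genes with at least 1 CPM, it was 1.16 to 1.24. In 51B the libraries differed 16.8-fold for CecA1 and 15.0-fold for DptB, and replicate 4 was the higher. In 51B/+ they differed 8.64-fold for DptA, and replicate 3 was the higher.

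The make-up of the antimicrobial RNA also differed. The diptericins took 71.0% of the counts of the 10 genes in both V966M/+ libraries (95% Clopper-Pearson intervals 70.5% to 71.5% and 70.3% to 71.8%, counting error only) and 72.5% in 51B/+ replicate 3 (71.7% to 73.2%). In 51B/+ replicate 4 they took 44.3% (42.1% to 46.5%). They took 29.6% (27.7% to 31.6%) and 24.6% (20.8% to 28.7%) in w, and 27.5% (24.8% to 30.2%) and 51.3% (49.1% to 53.6%) in 51B. In V966M they took 34.2% (32.1% to 36.3%) and 19.3% (16.5% to 22.4%). The cecropins took 5.62% (5.36% to 5.88%) and 3.55% (3.25% to 3.86%) in V966M/+, and 0.0987% (0.0526% to 0.169%) and 0.722% (0.395% to 1.21%) in 51B/+. They took 2.18% (1.60% to 2.90%) and 1.68% (0.728% to 3.28%) in w, and 0.560% to 1.89% in the 4 libraries of 51B and V966M. Per kilobase of exon, the order of mean levels in w began with Mtk (23.4 CPM per kb), DptA (10.3), DptB (6.78) and AttD (6.12) and ended with CecA2 (0.333). In V966M/+ it was DptA (604), DptB (202), AttD (126), CecA1 (63.0), Mtk (60.1), CecA2 (14.3), AttC (9.42), AttB (8.10), Dro (7.43) and AttA (2.81).

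Of the other effector genes, 3 of 17 tested were called higher in V966M/+ against w, where 0.421% of all tested genes were, and 0 lower, where 0.723% were. CecC, a further cecropin, was at 2.19 and 3.12 CPM in w and 110 and 117 in V966M/+ and rose by 5.43 (SE 0.79, adjusted p = 0.0244, edgeR). Def encodes defensin, which acts on Gram-positive bacteria. It was at 0.383 and 0.590 CPM in w and 20.2 and 9.82 in V966M/+, a rise of 4.996 (SE 0.74, adjusted p = 0.0222, edgeR). edin encodes a secreted peptide induced by infection and rose by 5.23 (SE 0.67, adjusted p = 0.00910, edgeR), from 6 and 3 counts to 313 and 68. CecB, between CecA2 and CecC, held 19 and 0 counts in w and 23 and 8 in V966M/+ and so did not share this pattern. The median over the 17 genes was 2.04, 8 had an unadjusted p under 0.05 and DESeq2 called 7. The call of CecC was lost without w replicate 3 or 4 or V966M/+ replicate 4, that of Def without w replicate 3 or 4, and that of edin without w replicate 3. Against V966M/+, V966M was called lower for 6 of the 17 (1.03% of all tested genes) and 51B/+ for 3 (1.56%), CecC, Def and edin among them in both. In 51B/+ against w, 0 of the 17 were called by edgeR, 4 had an unadjusted p under 0.05 and DESeq2 called 1 higher. There 15 of the 17 had a log2 fold change above 0, with a median of 1.12. Both 51B/+ libraries were above both w libraries for 7 of them, where 19.7% of all tested genes were.

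**Figure D4:**
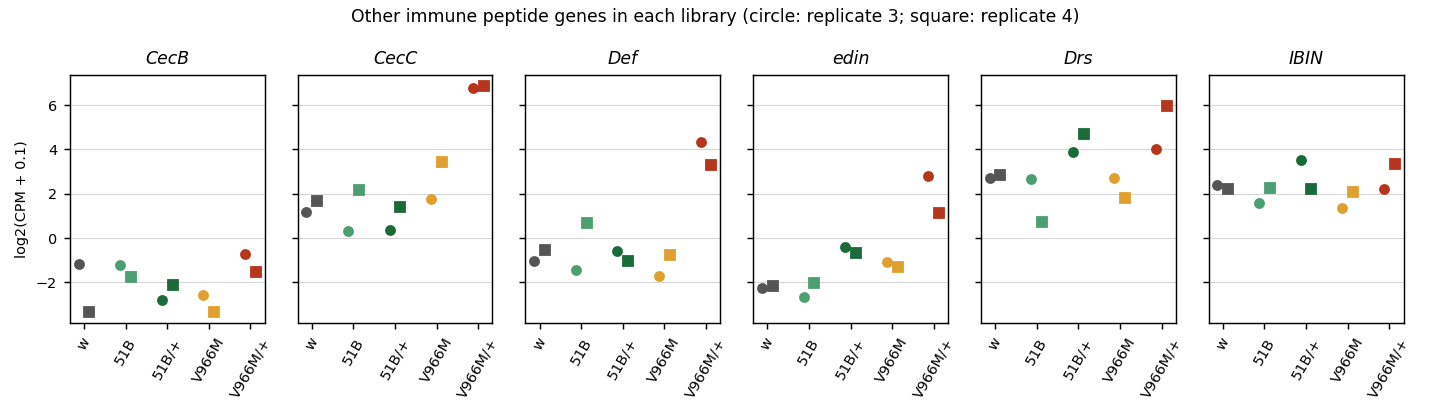
Level of 6 other effector genes, CecB, CecC, Def, edin, Drs and IBIN, in every library, as log2(CPM + 0.1) by strain (circle, replicate 3, square, replicate 4). The V966M/+ libraries stand apart for CecC (110 and 117 CPM), Def (20.2 and 9.82 CPM) and edin (6.84 and 2.06 CPM).

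Genes upstream of the peptides were tested as well. Of 13 tested genes of Imd recognition and signalling, 0 were called in V966M/+ against w by edgeR. Over all tested genes, 0.421% were called higher and 0.723% lower, so 0 calls do not set a list of this size apart. Of the 13 genes, 2 had an unadjusted p under 0.05 and DESeq2 called 1, with a median log2 fold change of 0.04. Rel was at 75.1 ± 16.0 CPM in w and 102.5 ± 3.03 in V966M/+ (SD, n = 2), a difference of 0.45 (SE 0.24, adjusted p = 0.551 by edgeR). PGRP-LC was at 31.9 ± 8.32 CPM in w, 27.8 ± 1.93 in 51B and 27.3 ± 0.949 in 51B/+. In V966M it was at 33.7 ± 2.48 CPM and in V966M/+ at 53.9 ± 1.83 CPM. It was not called against w (0.75, SE 0.19, adjusted p = 0.159, edgeR), but was lower than in V966M/+ in V966M (-0.68, adjusted p = 0.0958) and in 51B/+ (-0.98, adjusted p = 0.0401). PGRP-SD, a secreted recognition protein, fell by 1.61 in 51B/+ against w (SE 0.27, adjusted p = 0.0281, edgeR). The PGRP-LC call in V966M was lost when any 1 of the 8 mutant libraries was left out, that in 51B/+ without 51B/+ replicate 3 or V966M/+ replicate 4, and that of PGRP-SD without w replicate 4 or 51B/+ replicate 3.

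Of 9 negative regulators of Imd, 0 were called in V966M/+ against w by edgeR, where 0.421% of all tested genes were called higher and 0.723% lower. Of these 9 genes, 3 had an unadjusted p under 0.05, DESeq2 called 1 lower and the median was 0.29. pirk, an intracellular inhibitor of the receptors, had 0.84 (SE 0.55, adjusted p = 0.679) and PGRP-LB, an amidase that degrades peptidoglycan, had -0.10 (SE 0.23, adjusted p = 0.940), both by edgeR. Amidase genes of the same list were called in other strains. PGRP-SC1a (5.43, SE 0.95, adjusted p = 0.0699) and PGRP-SC1b (2.98, SE 0.56, adjusted p = 0.0777) rose in 51B, and PGRP-SC2 fell by 2.02 in 51B/+ (SE 0.33, adjusted p = 0.0234), all by edgeR. PGRP-SC2 was at 425 ± 58.0 CPM in w and 105 ± 44.3 in 51B/+ (SD, n = 2). Both libraries of every other mutant strain also lay below w for PGRP-SC2. They averaged 178 ± 10.4 CPM in 51B, 245 ± 14.6 in V966M and 194 ± 63.9 in V966M/+. The 2 libraries of 51B differed 4.42-fold for PGRP-SC1a. The calls of PGRP-SC1a and PGRP-SC1b were lost without either w library or 51B replicate 4, the first also without either V966M library and the second without 51B replicate 3, and that of PGRP-SC2 without w replicate 4 or 51B/+ replicate 3.

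Of the Toll pathway genes, 0 of 17 were called against w in any mutant strain by edgeR. In V966M/+, 3 had an unadjusted p under 0.05 and DESeq2 called 2 lower, with a median of -0.0015. Against V966M/+, 1 Toll gene was called higher in V966M (SPE, a protease that cleaves Spätzle) and 2 in 51B/+ (SPE and Tl, the Toll receptor), where 5.67% and 4.52% of all tested genes were. In 51B/+ against V966M/+, TotA and TotC of the Turandot list were also called higher and PGRP-LF, a negative regulator of Imd, was called lower. spz was at 19.0 ± 1.19 CPM in w and 19.0 ± 4.49 in V966M/+, cact, the inhibitor of Dif and Dorsal, at 141 ± 15.5 and 137 ± 0.181, and Dif at 19.7 ± 6.06 and 22.3 ± 0.291 (SD, n = 2). Of the Turandot and JAK-STAT genes, 0 of 12 were called in V966M/+ against w by edgeR and 2 had an unadjusted p under 0.05. In that comparison 0.421% of all tested genes were called higher and 0.723% lower. Of 6 tested genes linked to the response to virus or STING, Srg2 (-3.57, SE 0.47, adjusted p = 0.00933) and Srg3 (-4.81, SE 0.57, adjusted p = 0.00890) fell in V966M/+ by edgeR. Both also fell in 51B/+ by edgeR, with log2 fold changes of -3.84 (SE 0.49, adjusted p = 0.00647) and -5.04 (SE 0.58, adjusted p = 0.00539), and these 4 calls held without any 1 library. Srg3 also fell in 51B (-2.72, SE 0.51, adjusted p = 0.0883, edgeR), a call lost without either library of w, 51B or V966M. In V966M against w, 0 of the 6 were called by edgeR, 2 had an unadjusted p under 0.05 and DESeq2 called 1 lower. Srg3 was at 80.5 ± 42.4 CPM in w and 16.7 ± 7.91 in V966M, and Srg2 at 10.7 ± 7.70 and 5.05 ± 0.300 (SD, n = 2).

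**Figure D5:**
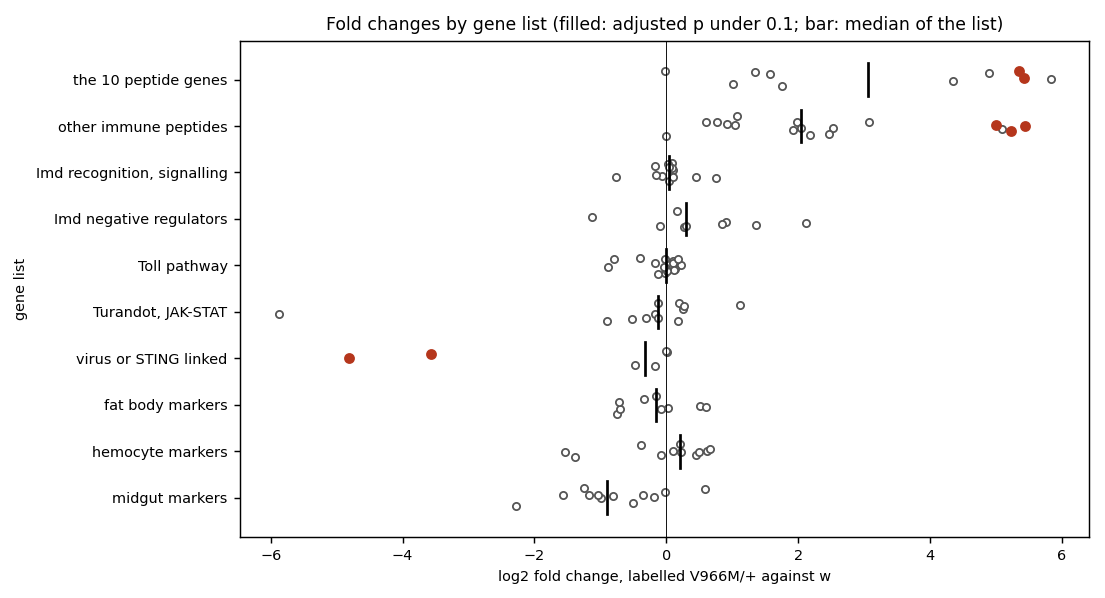
Log2 fold change in V966M/+ against w of each tested gene, grouped by list, with called genes filled and a bar at the median of the list. The 10 peptide genes range from -0.03 to 5.83, with a median of 3.05. Only DptA, CecA1 and CecA2 lie above 5, and DptA was not called. The 13 Imd signalling genes range from -0.77 to 0.75 and the 17 Toll genes from -0.88 to 0.22.

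Markers of the tissues in a larva gave the following levels beside these results, and their part in them was not tested. The 9 fat body markers summed to 55850 to 56415 CPM in w and 47549 to 53226 in V966M/+. None of the 9 was called in V966M/+ against w, where 0.421% of all tested genes were called higher and 0.723% lower. By edgeR, 2 had an unadjusted p under 0.05, and 3 of the 9 had a log2 fold change above 0 (median -0.15). The sum thus joins opposite changes. Lsp1beta was at 18229 ± 1683 CPM in w and 11223 ± 4288 in V966M/+, and Fbp1 at 15634 ± 318 and 22159 ± 4928 (SD, n = 2). In V966M the fat body markers summed to 67368 to 70115 CPM and in 51B/+ to 70194 to 74459. Against V966M/+, Desat1 was called higher and Gbp1 lower in V966M (median over the 9 genes 0.45), and Gbp1 was called lower in 51B/+. The 11 hemocyte markers summed to 496 to 763 CPM in w and 573 to 690 in V966M/+, with none called there, and Pxn rose in 51B/+ (0.87, SE 0.19, adjusted p = 0.0796, edgeR). The 12 midgut markers summed to 6290 to 7230 CPM in w and 2947 to 3925 in V966M/+. In 51B/+ they summed to 912 to 2600 CPM, in V966M to 3360 to 4995 and in 51B to 2026 to 2967. Most of the sum in w and V966M/+ was Jon65Aiv, at means of 5218 and 2620 CPM. There alphaTry was at 87.6 and 86.8 CPM and Mur29B at 84.3 and 127. In V966M/+ against w none of the 12 was called by edgeR, 4 had an unadjusted p under 0.05 and DESeq2 called 2 lower. Of the 12, 1 had a log2 fold change above 0, and the median was -0.90. Against V966M/+, Mur29B was called lower in V966M, and alphaTry and Mur29B in 51B/+. Against w, alphaTry had log2 fold changes of -2.25 in 51B and -2.16 in 51B/+, and Jon65Aiv of -2.47 in 51B/+, with adjusted p of 0.0537, 0.0353 and 0.0356 by edgeR. The alphaTry call in 51B was lost without either library of w, 51B or V966M, and that in 51B/+ without w replicate 3 or 51B/+ replicate 3. The Jon65Aiv call was lost without either w library or 51B/+ replicate 3, and the Pxn call in 8 of the 10 fits that left out 1 library, all but those without 51B/+ replicate 4 or V966M/+ replicate 4. None of the fat body, hemocyte or midgut markers was at 0 in a strain. The 7 testis markers summed to 3.12 to 3.50 CPM in w, 2.40 to 2.63 in 51B, 4.82 to 5.26 in V966M, 5.88 to 7.70 in V966M/+ and 7.61 to 13.1 in 51B/+. In 51B/+ TrxT was at 2.40 ± 3.39 CPM (SD, n = 2), and dj differed 19.3-fold between the libraries. Mst87F rose in V966M/+ and 51B/+ (2.64 and 2.76, adjusted p = 0.0175 and 0.0118, edgeR), calls that were lost without w replicate 3. It was at 0.599 ± 0.227 CPM in w and 2.57 ± 0.492 in V966M, where edgeR did not call it.

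Over the 10 libraries, the log2 levels of the 10 genes were each standardized to the same mean and spread and then averaged. This average followed DptA (Pearson r = 0.98), AttB (0.96) and DptB (0.96) most closely and AttA least (0.33), although each gene is itself part of it. Of the other genes whose mean reached 1 CPM, the most alike were htt (r = 0.93), Spt20 (0.91) and Hsc70-4 (0.90). These values share libraries and depth, are given as a description, and none of these 3 genes was called in V966M/+ against w.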

How the data were processed

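The authors sequenced polyadenylated RNA of whole female larvae as 50-base single-end reads. According to the methods and the submitters' processing notes, adapters were removed with cutadapt 1.10, reads were aligned to dm6 with HISAT2 2.0.4 and reads over FlyBase exons were counted with featureCounts 1.5.0-p3. What the authors deposited is a table of raw counts per gene and library, with no normalization and no pooling. Groups were taken from the strain labels, and all 10 columns matched a labelled library.

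Counts were analysed in R 4.3.3 with edgeR 4.0.16 (limma 3.58.1): genes with at least 10 counts summed over all libraries, TMM scaling, a robust quasi-likelihood fit of all 10 libraries with strain as the factor (5 residual degrees of freedom), and Benjamini-Hochberg adjustment over 13551 genes. The standard error is the log2 fold change divided by the square root of F. Alternatives were DESeq2 1.42.0, other filters and scalings, an adjusted p of 0.05, fits of the 2 strains compared, a replicate block and leaving out each library. The fitting code was tested on simulated data. Depth was 22337432 to 60886803 counts per library. Named genes were all 10 members, the genes of each list called against w (at most 3 by size) and 7 pathway genes fixed by name, and genes outside this rule were named after their values were seen. The members and lists were chosen with earlier results of these data known. Of 128 listed genes, 127 were found by symbol.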

Additional observations from a re-analysis of the deposited data

Results flagged for a closer look

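Effects against w that differed between mutant strains were tested directly by edgeR, as the difference between the strains. Between V966M and V966M/+ the log2 difference was -1.81 for AttB, -3.63 for AttD, -6.62 for CecA1, -5.18 for CecA2, -5.74 for DptA, -4.66 for DptB and -2.29 for Mtk. Between 51B/+ and V966M/+ it was -4.28 for AttD, -6.44 for CecA1 and -4.88 for CecA2. All are lower in the strain named first. Their adjusted p values run from 0.00846 (CecA2, 51B/+ against V966M/+) to 0.0927 (Mtk, V966M against V966M/+).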

How the results depend on the processing

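With 2 libraries per strain, counts of called antimicrobial peptide genes moved with the settings. For V966M/+ against w (2 called), DESeq2 gave 7, filterByExpr 5, the 2 strains alone 5, no count filter 1 and an adjusted p under 0.05 gave 1. For V966M against V966M/+ (7 called), no count filter gave 3, the 2 strains alone 3 and an adjusted p under 0.05 gave 2. For 51B/+ against V966M/+ (3 called), the 2 strains alone gave 1. For 51B/+ against w (1 called), DESeq2 gave 4. For 51B against w (0 called), DESeq2 and the 2 strains alone each gave 1, and DESeq2 gave 1 for 51B against 51B/+ and for 51B against V966M (0 called in each). For any difference among the 5 strains (5 called), DESeq2 gave 10, filterByExpr 8 and an adjusted p under 0.05 gave 2. The cause was not tested. Over all genes, DESeq2 called 665 against 155 by edgeR for V966M/+ against w and 1686 against 908 for V966M against V966M/+, for which the 2 strains alone gave 17. Leaving out 1 library gave 1 to 5 for V966M/+ against w, 0 to 7 for V966M against V966M/+, 1 to 4 for 51B/+ against V966M/+, 0 to 5 for 51B/+ against w and 2 to 9 for any difference, and 0 for the other comparisons. Each such fit left 1 strain with 1 library, and the calls over all genes moved with the library left out too. The direction turned for DptB in 51B against w (-0.77 to 3.14) and AttA in V966M/+ against w (-0.37 to 0.26).

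Library-total scaling shifted the median of all genes by 0.21 for V966M/+ against w and -0.36 for V966M against V966M/+. Same-numbered libraries correlated in their deviations from the strain means with r of 0.04 to 0.42 over the 10 pairs of strains, 8 of them above 0.1. The labels do not say what a number marks, and replicate 3 was the deeper library in every strain, so whether the numbers pair the libraries was not settled. With the replicate block, CecA2 was the 1 gene called for V966M/+ against w and 0 were called for 51B/+ against w, so that AttC lost its call. Over all genes the block raised the calls from 664 to 1571 for any difference and from 908 to 1800 for V966M against V966M/+. Low counts limit CecA1 and CecA2 outside V966M/+.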
